A study of Homo sapiens with 4 samples.

Results

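The keratin genes are the family of intermediate filament genes that give epithelial cells their mechanical strength. They were taken as the protein-coding Ensembl rows of the deposited expression table whose symbol is KRT, a number and at most 1 letter from A to C. This gave 56 rows out of 53777 Ensembl rows, of which 20269 are protein-coding. The rows stand for 55 symbols, since KRT222, a keratin-like gene, was listed under 2 identifiers. RNA was sequenced from NUGC3, an established human stomach cancer cell line, in 2 libraries of cells with a MYC knockdown and 2 libraries of wild-type cells. MYC is a transcription factor that drives cell growth, and the series compares the RNA profile of the line with and without its knockdown. Not given in the sources used here are how MYC was knocked down, whether the knockdown is 1 clone and what the wild-type cells received.

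Keratins fall into an acidic type I and a basic to neutral type II. A filament always pairs a type I with a type II protein, so the balance of the types matters to the cell. Simple, that is single-layered, epithelia of stomach, gut and ducts make KRT8 and KRT18, with KRT7, KRT19 and KRT20 added in some of them. Stratified, many-layered epithelia such as the epidermis make KRT5 with KRT14 or KRT15 in their basal layer and KRT1 with KRT10 above it, and KRT6A, KRT6B, KRT16 and KRT17 appear where such epithelia heal or divide fast. Hair keratins form the hair shaft, and a further set belongs to the inner root sheath and companion layer around it.

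By these classes the 56 rows held 5 simple, 17 stratified, 17 hair and 9 root sheath keratins, and 8 rows outside them (KRT23, KRT24, KRT77, KRT78, KRT79, KRT80 and KRT222 under both identifiers). In GENCODE release 29 on GRCh38, matched by Ensembl identifier, 26 type II genes and KRT18 lie on chromosome 12 between 52168996 and 52952901. The other 29 type I rows lie on chromosome 17 between 40627356 and 41624842.

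Several members are near-copies of each other, which bears on how far their values can be told apart. The coding sequences of KRT6A, KRT6B and KRT6C are each 1692 bases long, and 97.5% of the bases of KRT6A and KRT6B are the same (42 differ). Between KRT6B and KRT6C 98.5% are the same. The 60 bases of the coding sequence in which the trio differs most are shown because values of KRT6A and KRT6B rest on reads from such stretches. Capitals mark the 9 positions at which the 3 are not all alike, and all lie on the minus strand of chromosome 12 in GRCh38, KRT6A at chr12:52491555-52491614, KRT6B at chr12:52450439-52450498 and KRT6C at chr12:52472099-52472158.
KRT6A: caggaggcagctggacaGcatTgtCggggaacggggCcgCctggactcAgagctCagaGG
KRT6B: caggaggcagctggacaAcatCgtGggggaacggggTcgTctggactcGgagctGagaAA
KRT6C: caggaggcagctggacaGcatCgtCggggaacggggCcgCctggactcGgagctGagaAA
Of all 50-base windows in the GENCODE transcripts of KRT6B, 47.1% also occur in a transcript of another gene, most often KRT6C, and of those of KRT6A 32.1% do. The hair keratins KRT81, KRT83 and KRT86 are shown for the same reason, since KRT81 was the one abundant hair keratin. KRT81 and KRT86 have 94.5% of aligned coding bases in common, and 43.7% of the 50-base windows of KRT81 occur in another gene. Capitals mark the 16 positions that are not alike in the stretch where these 3 differ most, which spans an exon junction, with KRT81 at chr12:52286465-52286821 and KRT83 at chr12:52314790-52315342 on the minus strand and KRT86 at chr12:52308234-52308432 on the plus strand.
KRT81: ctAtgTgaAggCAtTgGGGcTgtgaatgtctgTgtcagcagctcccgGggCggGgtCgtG
KRT83: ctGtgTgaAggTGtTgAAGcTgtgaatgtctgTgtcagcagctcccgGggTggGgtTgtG
KRT86: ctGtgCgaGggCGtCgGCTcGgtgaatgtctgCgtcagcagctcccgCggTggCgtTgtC

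The values deposited by the authors were read as FPKM, fragments per kilobase of transcript scaled to the mapped fragments of the library. The sources used here name no unit, and TPM, a similar unit scaled to a fixed total, cannot be told apart if rows were left out of the table. Summed over Ensembl rows the libraries held between 615172 and 676445 FPKM. The table states no depth, but steps in the low values put a single fragment at about 0.0412 and 0.0396 FPKM in the knockdown and 0.0307 and 0.0387 FPKM in the wild-type libraries for a transcript of 1500 bases. MYC stood at 65.0 and 75.8 FPKM in the knockdown libraries, against 82.9 and 82.0 FPKM in wild type, below wild type in both but not past the test (limma adjusted p = 0.237). The log2 change of MYC was −0.23, −0.12 without knockdown replicate 1 and −0.34 without replicate 2. The labels tie no replicate to a culture of its own, and each p-value reflects the spread of these 4 libraries, which may be technical. That spread was larger in the knockdown, with a median SD over 12953 tested genes of 0.142 on the log2 scale against 0.054 in wild type. The 8 interferon-stimulated genes examined summed to 983 FPKM in MYC knockdown replicate 1 and 89.2 FPKM in replicate 2, against 88.0 and 79.6 FPKM in wild type, so knockdown replicate 1 stands apart.

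The label of a stomach cancer epithelium was checked against markers. EPCAM, an adhesion protein of simple epithelia, stood at 181 and 197 FPKM in the knockdown libraries, against 210 and 209 FPKM in wild type. The stomach mucosa gene TFF1 was at or below 0.53 FPKM in all 4 libraries. Of the 7 epithelium markers, 6 were tested. Without overlap between the groups, 3 were higher and 3 lower in the knockdown, against 33.4% and 25.2% of all genes tested. Of 7 squamous markers, IVL, DSG3, SPRR3 and CALML3 were listed at 0 in all libraries, while TP63, the transcription factor of basal stratified cells, stood at 14.4 and 17.2 FPKM in the knockdown, against 18.5 and 18.0 FPKM in wild type. The 7 epithelium markers summed to 461 and 509 FPKM in the knockdown, against 483 and 482 FPKM in wild type, and the 7 squamous markers to 14.9 and 18.0 FPKM in the knockdown, against 18.7 and 18.6 FPKM in wild type. The fibroblast genes COL1A2, COL3A1 and DCN and the leukocyte gene PTPRC were listed at 0 in all libraries, and no gene of the immune and endothelium lists exceeded 0.21 FPKM. COL1A1 alone of the fibroblast list was above 1 FPKM, at 8.12 and 2.98 FPKM in the knockdown, against 6.57 and 5.75 FPKM in wild type.

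Most of the keratin RNA came from 4 simple keratins. KRT8, KRT18, KRT7 and KRT19 together made up 92.7% and 90.5% of the summed keratin FPKM in the knockdown libraries, against 92.6% and 92.5% in wild type. A mean of at least 1 FPKM over the 4 libraries was reached by 13 keratins, 18 rows had lower means above 0, and 25 were listed at 0 in every library. KRT20, the simple keratin of intestinal and gastric surface cells, was among those at 0. By class, 4 of 5 simple, 7 of 17 stratified, 1 of 17 hair and 0 of 9 root sheath keratins reached 1 FPKM. KRT8 ranked 22nd and 29th among protein-coding genes in the knockdown libraries, against 41st and 37th in wild type. KRT18 ranked 27th and 33rd in the knockdown, against 36th and 35th in wild type. Its FPKM was 2118 and 1824 in the knockdown, against 2092 and 2131 in wild type, so a higher rank did not need a higher FPKM.

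**Figure D1:**
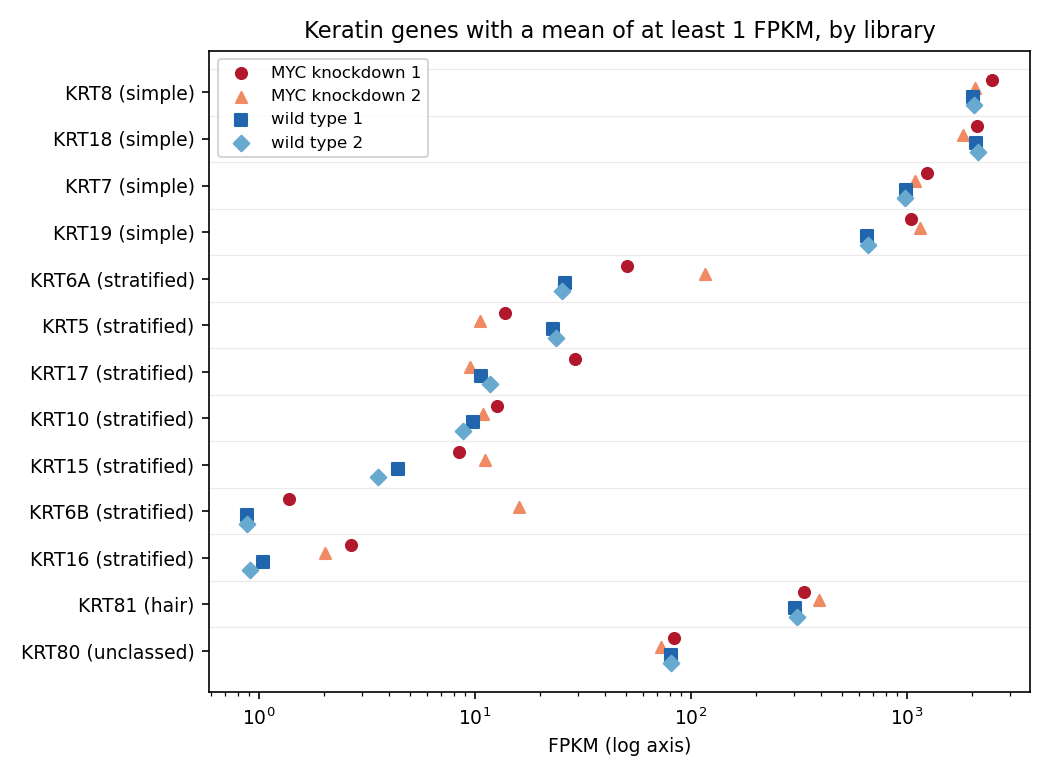
FPKM (log axis) of the 13 keratin genes with a mean of at least 1 FPKM, by gene and class; each point is 1 library, with MYC knockdown in red and orange and wild type in blue. The simple keratins lie between 655 and 2488 FPKM, KRT81 between 304 and 393 FPKM, and the stratified keratins between 0.88 and 116 FPKM.

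Each of these 13 genes, and no other keratin, had at least 1 FPKM in 2 libraries and was tested with limma across 12953 genes on log2(FPKM + 1). At an adjusted p of 0.05, 0 keratins were called in either direction, as for 0.0% of all genes. The unadjusted p was under 0.05 for 6 of the 13, 5 higher and 1 lower, against 14.4% and 11.5% of all genes. At an adjusted p of 0.10, a threshold at which 5.5% of all genes were higher and 4.91% lower in the knockdown, KRT19 and KRT15 were called higher and KRT5 lower. Without overlap between the groups, 9 of the 13 were higher in the knockdown, against 33.4% of all genes tested, and 1 was lower, against 25.2%. Without knockdown replicate 1, limma called 5 keratins higher and 2 lower at 0.05, where it called 12.5% and 13.6% of all genes. Without knockdown replicate 2 it called 7 higher and 1 lower, where it called 15.2% and 11.2% of all genes, so calls rose across the whole table. The median log2 change of the 13 was 0.31, against 0.04 over all genes tested. KRT6B passed the low-value filter through its knockdown values alone and KRT16 needed 1 of them, so a difference was built into their entry, and these counts do not describe the other 43 rows. Since whole cultures were sequenced, more cells with a keratin and more of its RNA per cell cannot be told apart.

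Among the simple keratins, KRT19 had the largest difference. KRT19, a small type I keratin of ducts and glands that lacks the usual tail domain (ENSG00000171345; chromosome 17, 41523617 to 41528308, minus strand), stood at 1047 and 1153 FPKM in the knockdown libraries, against 655 and 661 FPKM in wild type. Both knockdown libraries were high, and the groups did not overlap. Among protein-coding genes it ranked 70th and 64th in the knockdown libraries, against 140th in both wild-type libraries. The means were 1100 ± 75.0 FPKM in the knockdown and 658 ± 4.28 FPKM in wild type (SD, n = 2 each). Its log2 change was 0.74 ± 0.08 (SE; limma adjusted p = 0.0556, unadjusted p = 0.000377). It passed 0.05 when the test was limited to protein-coding rows (limma adjusted p = 0.0431) or to genes with a mean of at least 5 FPKM (limma adjusted p = 0.0458). It was the one keratin called in either, where 1.47% of protein-coding genes were called higher and 1.86% lower, and 1.37% and 1.87% of genes with that mean. Neither limit alters the log2 change of KRT19. With no low-value filter its limma adjusted p was 0.145, and with a replicate block it was 0.0704. Only 0.977% of the 50-base windows of KRT19 occur elsewhere, all in the pseudogene KRT19P1.

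KRT7, the type II keratin of ducts and many glands, stood at 1243 and 1093 FPKM in the knockdown, against 993 and 983 FPKM in wild type. Its groups did not overlap, with a log2 change of 0.24 ± 0.09 (SE; limma adjusted p = 0.190), and the change was 0.15 without knockdown replicate 1 and 0.33 without knockdown replicate 2. Its locus overlaps KRT86 on the same strand, and the antisense gene KRT7-AS and the pseudogene KRT87P on the opposite strand. Reads of overlapping genes on opposite strands cannot be told apart without a stated strand. KRT8, the general type II keratin of simple epithelia, stood at 2488 and 2061 FPKM in the knockdown, against 2031 and 2045 FPKM in wild type. Knockdown replicate 2 lay just above wild type and replicate 1 well above, and the log2 change was 0.15 ± 0.11 (SE; limma adjusted p = 0.440). Without knockdown replicate 1 the change of KRT8 was 0.02. The scaling mattered as well. With quantile normalization the changes were 0.40 for KRT8 and 0.49 for KRT7, and with median of ratios 0.10 and 0.19.

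KRT18, the type I partner of KRT8, was the only simple keratin whose groups overlapped. It stood at 2118 and 1824 FPKM in the knockdown, against 2092 and 2131 FPKM in wild type, with knockdown replicate 2 alone below the rest. The log2 change was −0.10 ± 0.10 (SE; limma adjusted p = 0.551), and it was 0.17 with quantile normalization and 0.004 without knockdown replicate 2. KRT8 and KRT18 overlap at one end on opposite strands in GENCODE, and since no strand is stated, reads from there cannot be assigned to 1 of them. Rows of pseudogenes named after KRT8 and KRT18 took at most 0.745% and 0.083% of the FPKM of gene and pseudogenes together.

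The proportions among the simple keratins were also set side by side. The ratio of KRT19 to KRT18 was 0.494 and 0.632 in the knockdown libraries, against 0.313 and 0.310 in wild type. That of KRT18 to KRT8 was 0.851 and 0.885 in the knockdown, against 1.03 and 1.04 in wild type. The ratio of KRT7 to KRT8 was 0.500 and 0.530 in the knockdown, against 0.489 and 0.481 in wild type. The ratio of KRT18 to KRT8 was the one that was lower in the knockdown. None of these ratios overlapped between the groups, that of KRT7 to KRT8 by little. They share KRT8 and KRT18, so they are not separate results. Of all single genes tested, 33.4% were higher and 25.2% lower without overlap. The ratio of all type I to all type II keratins was 0.763 and 0.800 in the knockdown, against 0.802 and 0.812 in wild type, with little room between the groups. With 2 libraries a group, an exact permutation test of a ratio could not reach 0.05, so none was run.

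The stratified keratins were a small part of keratin RNA but showed the largest differences among members. Their 17 genes summed to 122 and 178 FPKM in the knockdown, against 76.8 and 75.9 FPKM in wild type, a log2 difference of 0.95 between the mean log2 sums. Without KRT6A and KRT6B the sums were 69.8 and 45.5 FPKM in the knockdown and 49.7 FPKM in both wild-type libraries, so the groups then overlapped. Simple keratins summed to 6897 and 6132 FPKM in the knockdown, against 5772 and 5821 FPKM in wild type, a log2 difference of 0.17, which was 0.08 without knockdown replicate 1 and 0.25 without replicate 2. Hair keratins summed to 336 and 393.5 FPKM in the knockdown, against 305 and 312 FPKM in wild type, a log2 difference of 0.24, which was 0.35 without knockdown replicate 1 and 0.12 without replicate 2. These sums were not tested, and differences between the classes were not tested.

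**Figure D2:**
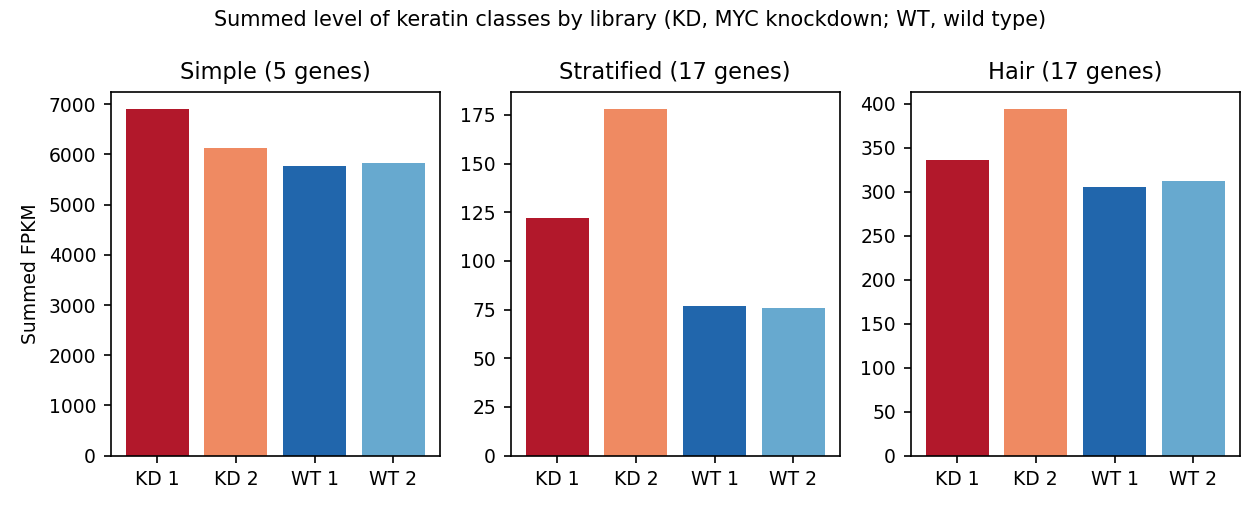
Summed FPKM (linear axes that start at 0, with a scale of its own in each panel) of simple, stratified and hair keratins; each bar is 1 library. The stratified sum is 122 and 178 FPKM in the knockdown libraries against 76.8 and 75.9 FPKM in wild type, while the simple and hair sums differ by less.

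KRT5 was the one keratin of at least 1 FPKM that was lower in both knockdown libraries. This type II keratin of basal stratified cells (ENSG00000186081; chromosome 12, 52514575 to 52520687, minus strand) stood at 13.8 and 10.6 FPKM in the knockdown, against 23.0 and 23.7 FPKM in wild type. The means were 12.2 ± 2.26 FPKM in the knockdown and 23.3 ± 0.530 FPKM in wild type (SD, n = 2 each), and the log2 change was −0.90 ± 0.15 (SE; limma adjusted p = 0.0623). With median of ratios scaling it was −0.94 and just past 0.05 (limma adjusted p = 0.0499), as the one keratin called, where 0.733% of all genes were called higher and 1.64% lower. KRT14, the usual type I partner of KRT5, was low, at 0.30 and 0.10 FPKM in the knockdown, against 0.17 and 0.16 FPKM in wild type.

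KRT15, the other type I keratin of basal cells (ENSG00000171346; chromosome 17, 41513743 to 41522529, minus strand, beside KRT19), was higher in both knockdown libraries. Its values were 8.47 and 11.1 FPKM in the knockdown, against 4.41 and 3.56 FPKM in wild type. The groups did not overlap, at means of 9.79 ± 1.87 FPKM in the knockdown and 3.99 ± 0.601 FPKM in wild type (SD, n = 2 each), with a log2 change of 1.11 ± 0.18 (SE; limma adjusted p = 0.0619). The ratio of KRT15 to KRT5 was 0.616 and 1.05 in the knockdown, against 0.192 and 0.150 in wild type.

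KRT6A and KRT6B, type II keratins of wound healing, were higher in both knockdown libraries, by very unequal amounts. KRT6A (ENSG00000205420; chromosome 12, 52487174 to 52493257, minus strand) stood at 50.9 and 116 FPKM in the knockdown, against 26.3 and 25.4 FPKM in wild type. Its log2 change was 1.54 ± 0.40 (SE; limma adjusted p = 0.108), 2.13 without knockdown replicate 1 and 0.95 without knockdown replicate 2. KRT6B (ENSG00000185479; chromosome 12, 52446651 to 52452126, minus strand) stood at 1.39 and 16.02 FPKM in the knockdown, against 0.88 FPKM in both wild-type libraries. Knockdown replicate 2 alone was high, and the log2 change was 1.76 ± 0.94 (SE; limma adjusted p = 0.308), 3.18 without knockdown replicate 1 and 0.35 without knockdown replicate 2. The ratio of KRT6A to KRT6B was 36.6 and 7.27 in the knockdown, against 29.8 and 28.8 in wild type, so the near-copies did not keep 1 ratio. KRT6C was at most 0.09 FPKM. With the shared windows given for this trio, single values of its members are uncertain.

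KRT16 and KRT17, the type I keratins that accompany KRT6 in healing epidermis, differed from each other. KRT16 stood at 2.67 and 2.04 FPKM in the knockdown, against 1.05 and 0.91 FPKM in wild type, with a log2 change of 0.76 ± 0.19 (SE; limma adjusted p = 0.104). Its pseudogene KRT16P2 was lower in both knockdown libraries, at 2.0 and 2.03 FPKM in the knockdown, against 4.70 and 4.89 FPKM in wild type. KRT16 with its pseudogene rows came to 5.13 and 4.33 FPKM in the knockdown, against 6.85 and 6.69 FPKM in wild type. The sum was thus lower in the knockdown while KRT16 alone was higher, 16.5% of its 50-base windows occur in another gene, and the part of the reads divided among these rows was not tested. KRT17 stood at 29.04 and 9.52 FPKM in the knockdown, against 10.7 and 11.8 FPKM in wild type. Only knockdown replicate 1 was high and the groups overlapped (log2 change 0.54 ± 0.51, SE; limma adjusted p = 0.548), and without that library the change was −0.22.

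**Figure D3:**
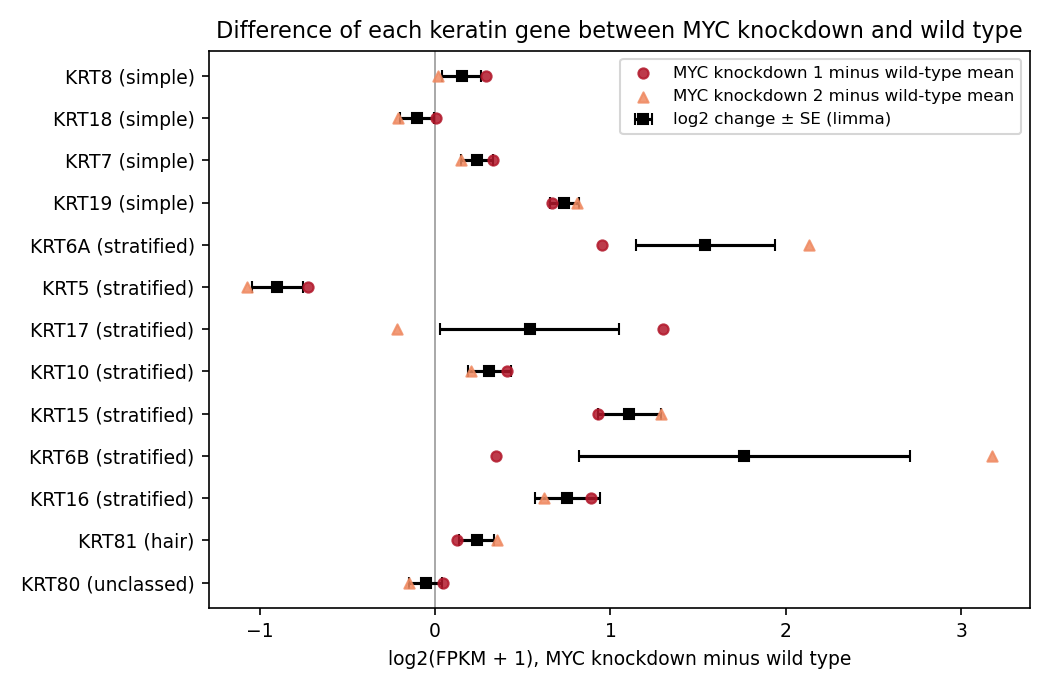
Difference between MYC knockdown and wild type on the log2(FPKM + 1) scale for the 13 tested keratins; black squares are the limma log2 change with its standard error, and coloured points are each knockdown library minus the wild-type mean. KRT19 (0.67 and 0.81), KRT15 (0.93 and 1.29) and KRT5 (−0.72 and −1.08) are alike in both knockdown libraries, whereas KRT6B (0.35 and 3.18) and KRT17 (1.30 and −0.22) are not.

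KRT10, the type I keratin of upper epidermal layers, stood at 12.7 and 10.9 FPKM in the knockdown, against 9.79 and 8.85 FPKM in wild type. Its log2 change was 0.31 ± 0.125 (SE; limma adjusted p = 0.210), and it overlaps TMEM99 on the other strand. KRT1, the type II partner of KRT10, was at most 0.02 FPKM, below the value of a single fragment in a transcript of 1500 bases. KRT4, a keratin of moist lining epithelia such as the esophagus and the highest of the stratified keratins under 1 FPKM, stood at 2.15 and 0.15 FPKM in the knockdown, against 0.21 and 0.35 FPKM in wild type. As with KRT17, the high value was in knockdown replicate 1, the library with the high interferon-stimulated genes, and the part of those genes in either value was not tested. The remaining stratified keratins, KRT2, KRT3, KRT9, KRT12, KRT13 and KRT76, were at most 0.81 FPKM.

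**Figure D4:**
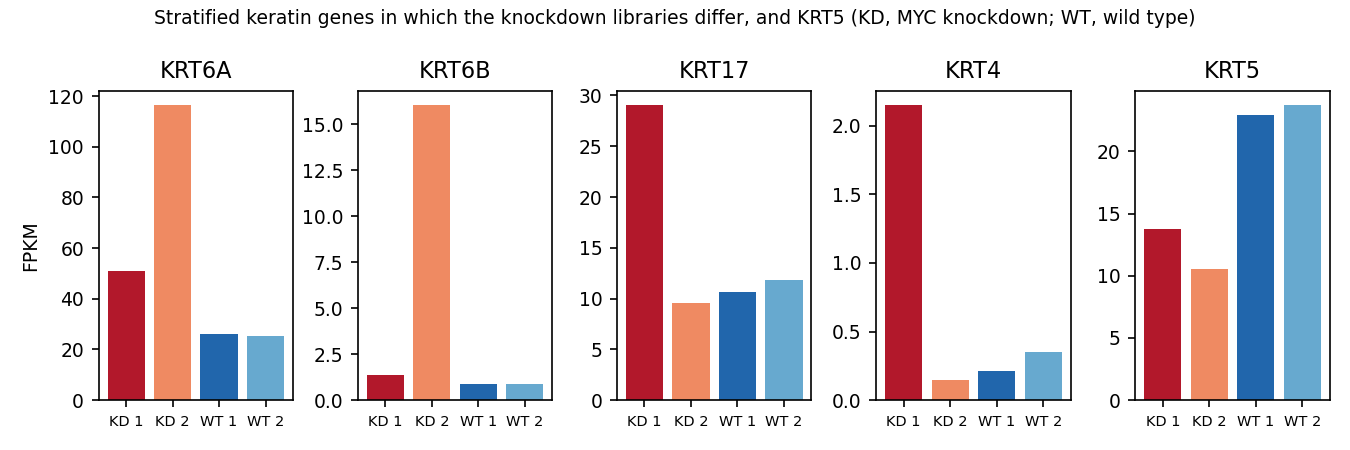
FPKM (linear axes that start at 0, with a scale of its own in each panel) of KRT6A, KRT6B, KRT17, KRT4 and KRT5; each bar is 1 library. KRT6B is high in MYC knockdown replicate 2 alone (16.02 FPKM), KRT17 and KRT4 in replicate 1 alone (29.04 and 2.15 FPKM), and KRT5 is lower in both knockdown libraries than in either wild-type library.

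KRT81 was the only abundant hair keratin. This type II keratin of the hair cortex (ENSG00000205426; chromosome 12, 52285913 to 52291534, minus strand) stood at 336 and 393 FPKM in the knockdown, against 304 and 311 FPKM in wild type, more than any stratified keratin. The groups did not overlap and the log2 change was 0.24 ± 0.10 (SE; limma adjusted p = 0.222), with 0.35 without knockdown replicate 1 and 0.12 without knockdown replicate 2. The other 16 hair keratins together came to 0.39 and 0.40 FPKM in the knockdown, against 0.57 and 0.69 FPKM in wild type, and 11 were listed at 0 in all libraries. Its near-copy KRT86 stood at 0.36 and 0.37 FPKM in the knockdown, against 0.07 and 0.12 FPKM in wild type. KRT86 overlaps KRT81 on the opposite strand, and the part of shared reads in its low values was not tested. KRT34, a type I hair keratin, stood at 0.03 FPKM in both knockdown libraries, against 0.42 and 0.38 FPKM in wild type, that is, at about 1 fragment in the knockdown.

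The surroundings of a hair shaft were mostly absent or low. Of 110 keratin-associated protein genes, whose products embed hair keratins, 102 were listed at 0 in every library, and the highest single value was 2.84 FPKM. TCHH, which encodes trichohyalin of the inner root sheath, was at most 0.11 FPKM. HOXC13, a transcription factor of hair keratin genes, stood at 3.88 and 1.47 FPKM in the knockdown, against 3.29 and 2.78 FPKM in wild type. Of the same hair shaft list, MSX2 stood at 1.37 and 1.93 FPKM in the knockdown, against 1.49 and 1.46 FPKM in wild type. LEF1 was at most 0.21 FPKM. The root sheath keratins were no higher than 0.15 FPKM (KRT71 in wild type replicate 1).

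KRT80, a type II keratin outside the main classes, was nearly the same in all libraries, at 83.4 and 72.8 FPKM in the knockdown, against 80.8 and 81.0 FPKM in wild type. The log2 change was −0.05 ± 0.09 (SE; limma adjusted p = 0.759), and 0.04 with equal column sums. The gene overlaps LINC00592. KRT23, KRT24 and KRT79 were listed at 0 in every library, and the rest of this group, with KRT78 as its highest member, was at most 0.28 FPKM.

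In wild type the order of levels was KRT18, KRT8, KRT7, KRT19, KRT81, KRT80, KRT6A, KRT5, KRT17, KRT10, KRT15, KRT16 and KRT6B. In the knockdown means it began with KRT8, KRT18, KRT7, KRT19, KRT81, KRT6A and KRT80. KRT8 (2275 ± 302 FPKM) stood above KRT18 (1971 ± 208 FPKM) in each knockdown library. KRT7 (1168 ± 106 FPKM) stood above KRT19 (1100 ± 75.0 FPKM) in knockdown replicate 1 and below it in replicate 2. Spreads are given as SD with n = 2. KRT6A stood above KRT80 in knockdown replicate 2 and below it in replicate 1, so the order of this pair also changed between the libraries. In wild type KRT7 (988 ± 6.79 FPKM) lay well above KRT19.

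Genes that work with keratin filaments were examined through lists. Of the 18 filament partners, 17 were tested and 0 passed an adjusted p of 0.05, with 4 higher and 4 lower at an unadjusted p under 0.05, against the same 14.4% and 11.5% of all genes. Their median log2 change was 0.06, against 0.04 over all genes. PLEC, the plectin that links keratin filaments to hemidesmosomes and other filaments, stood at 78.6 and 93.4 FPKM in the knockdown, against 48.7 and 48.5 FPKM in wild type (log2 change 0.80, limma adjusted p = 0.0567). PKP2, a desmosomal plakophilin, stood at 20.6 and 18.9 FPKM in the knockdown, against 28.9 and 29.9 FPKM in wild type (log2 change −0.55, limma adjusted p = 0.0632). These were the members past 0.10, 1 higher and 1 lower of 17, where 5.5% of all genes were higher and 4.91% lower. DSP, the desmoplakin that anchors keratins at desmosomes, stood at 46.1 and 42.7 FPKM in the knockdown, against 52.5 and 52.9 FPKM in wild type (limma adjusted p = 0.160).

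The 4 most abundant members of this list had log2 changes between −0.38 and 0.29. PKP3, another plakophilin, averaged 124 FPKM in the knockdown and 101 FPKM in wild type, and DNAJB6, a chaperone reported to bind KRT18, averaged 109 FPKM in the knockdown and 142 FPKM in wild type. The log2 changes of PKP3 and DNAJB6 were 0.29 and −0.38 (limma adjusted p = 0.104 and 0.106). CSNK1A1, a kinase linked to keratin filament organization, and KRTCAP2, a subunit of the oligosaccharyltransferase despite its keratinocyte name, had log2 changes of 0.04 and 0.06.

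The cornified envelope list, the products of late stratified differentiation, was mostly silent. Of 25 genes, 8 were listed at 0 in all libraries and 5 were tested, of which 0 passed 0.05, and 0 were higher and 2 lower at an unadjusted p under 0.05 (14.4% and 11.5% of all genes). S100A9, a calcium-binding protein of stressed epithelium, dominated its sum, at 3642 and 2868 FPKM in the knockdown, against 4382 and 4429 FPKM in wild type (log2 change −0.45, limma adjusted p = 0.134). CSTA, the protease inhibitor cystatin A, stood at 7.50 and 7.96 FPKM in the knockdown, against 13.4 FPKM in both wild-type libraries (log2 change −0.72, limma adjusted p = 0.0569). S100A7 and S100A8, calcium-binding proteins of the same family, were low in knockdown replicate 2 alone, at 30.6 and 18.9 FPKM, where the other 3 libraries held at least 127 and 49.8 FPKM. SPRR1B was listed at 0 in every library but knockdown replicate 2, at 0.82 FPKM.

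Among other intermediate filament genes, 8 of 18 were tested and 0 passed 0.05, with 0 higher and 1 lower at an unadjusted p under 0.05 (14.4% and 11.5% of all genes). LMNA, LMNB1 and LMNB2, which form the nuclear lamina, had log2 changes of 0.26, −0.27 and −0.11 (limma adjusted p = 0.275, 0.122 and 0.491), and IFFO2 one of −0.38 (limma adjusted p = 0.248). Without knockdown replicate 1 the change was 0.42 for LMNA and −0.17 for IFFO2, and without knockdown replicate 2 it was 0.10 for LMNA and −0.04 for LMNB2. VIM, the vimentin of mesenchymal cells, stood at 1.26 and 8.32 FPKM in the knockdown, against 1.17 and 1.0 FPKM in wild type. Its high value was in knockdown replicate 2, the library in which KRT6A and KRT6B were highest.

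Of 28 transcription factors known from keratin genes or from the epithelia that make them, 18 were tested and 0 passed 0.05, with 5 higher and 1 lower at an unadjusted p under 0.05 (14.4% and 11.5% of all genes). The median log2 change was 0.05. KLF5, a factor of proliferating epithelium, stood at 68.7 and 56.9 FPKM in the knockdown, against 38.3 and 39.2 FPKM in wild type (log2 change 0.68, limma adjusted p = 0.0651). RUNX1, a factor of hair and epithelial stem cells, stood at 30.0 and 29.6 FPKM in the knockdown, against 21.1 and 20.9 FPKM in wild type (log2 change 0.49, limma adjusted p = 0.0635). EHF, ELF3 and CEBPB, the other abundant members, had log2 changes of −0.12, −0.09 and 0.22 (limma adjusted p = 0.648, 0.499 and 0.404). TP63 had one of −0.20 (limma adjusted p = 0.337).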

How the data were processed

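The values, in 1 table deposited by the authors, were taken as FPKM per gene. No source used here names the unit. The columns summed over all rows to between 674328 and 739335 and so share no fixed total, but TPM with rows left out cannot be told apart. RSEM and STAR are named in the submitters' processing notes. Not given in the sources used here are versions, genome build, annotation and strand. Groups were taken from the sample titles, and the design allows 1 comparison.

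The keratin members, classes and lists were chosen with earlier results of these data known. An Ensembl row was tested when 2 or more libraries held 1 FPKM or more. The test was limma 3.58.1 (eBayes with a trend) in R 4.3.3, on log2(FPKM + 1). P-values were adjusted by Benjamini-Hochberg over all 12953 genes, at a threshold of 0.05. Log2 changes are MYC knockdown minus wild type and understate the change of low genes. The fit was tested on simulated data that gave both groups the same spread, whereas the spread of the real libraries differed between the groups.

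The depth is unknown, and read counts were not recovered. Against wild type replicate 1, steps in the low values, read as FPKM, put the depth at 74.5% and 77.7% for the knockdown libraries and 79.3% for wild type replicate 2. RSEM divides reads between near-identical genes, so values of such genes are uncertain.

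Named were MYC, keratins with a mean of at least 1 FPKM, the highest of the rest in each class, and the up to 4 most abundant genes of each filament, envelope and regulator list. Of marker lists only defining genes were named, and for the hair shaft also MSX2 and LEF1. Outside this rule, KRT1, KRT14, KRT34, the KRT16 pseudogene, PLEC, PKP2, DSP, SPRR1B, VIM and RUNX1 were named after their values were seen. GENCODE 29 transcripts gave coordinates, 50-base windows and coding sequences, which were aligned with Biopython 1.88. Alternatives were the low-value filter, pseudocount, scaling, threshold, replicate block, tested rows, class limits and each library left out.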

Additional observations from a re-analysis of the deposited data

How the results depend on the processing

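With 2 libraries a group, limma called 0 keratins at 0.05, and that count moved in some settings. With a mean of at least 5 FPKM, or with protein-coding rows alone, 1 keratin was higher and 0 lower (KRT19), where 1.37% and 1.87% or 1.47% and 1.86% of all genes were called. With median of ratios 0 were higher and 1 lower (KRT5), against 0.733% and 1.64% of all genes. At a threshold of 0.10, 2 were higher and 1 lower, against 5.5% and 4.91% of all genes. Leaving out each library in turn gave between 0 and 7 higher and between 0 and 2 lower, the calls coming without MYC knockdown replicate 1 (5 and 2, against 12.5% and 13.6% of all genes) or 2 (7 and 1, against 15.2% and 11.2%), where the spread rests on the close wild-type pair and the lone library is assumed to vary likewise. For partners, envelope genes, other filaments and regulators together the count was 0, with 1 higher and 1 lower at a mean of at least 5 FPKM and with protein-coding rows, 3 and 2 at 0.10, 0 and 2 with median of ratios, and 0 to 10 higher and 0 to 11 lower with a library left out, beside the same shares of all genes. Same-numbered libraries did not deviate together (r = −0.0059 over 12953 genes), so the numbers are not taken as pairs, and with a replicate block 0 keratins were called. With no filter beyond a value above 0, 0 keratins were called. Equal column sums moved the median of all genes by under 0.1 and the log2 differences of the summed levels to 0.277 for all keratins, 0.262 for simple keratins, 0.251 for type I and 0.297 for type II, against 0.181, 0.166, 0.155 and 0.202 as reported. With a library left out, the log2 differences of the sums ran from 0.11 to 0.25 for all and 0.08 to 0.25 for simple keratins. They ran from 0.68 to 1.22 for stratified and 0.12 to 0.35 for hair keratins. The groups of these sums did not overlap, so leaving out a library could not turn their direction. The changes of S100A7 (−2.14 to −0.09), S100A9 (−0.62 to −0.28) and CEBPB (0.06 to 0.38) also moved by over 1.5 times with a library left out. For S100A9 the change was −0.11 with quantile normalization. Signs turned for KRT18 (0.174 with quantile normalization, −0.211 to 0.004 with a library left out), KRT17 (−0.216 to 1.297 with a library left out) and KRT80 (0.041 with equal column sums, −0.15 to 0.043 with a library left out). They also turned for CSNK1A1 (−0.008 with median of ratios, −0.095 to 0.175 with a library left out), for ELF3 with equal column sums alone (0.003), and with a library left out for KRTCAP2 (−0.011 to 0.125), EHF (−0.299 to 0.07) and S100A8 (−1.36 to 0.474). The cause was not tested. KRT19, KRT15, KRT6A, KRT6B, KRT16, KRT10, KRT7, KRT8 and KRT81 stayed higher and KRT5 lower with each alternative scaling. The other alternatives could not turn these signs. The groups of these genes did not overlap, and filter, threshold, block and tested rows leave the log2 change as it is. KRT6B and KRT16 were not tested with a mean of at least 5 FPKM.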
